A study of Homo sapiens with 12 samples.

Results

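The genes described here are the antisense transcripts expressed in HLE-B3 cells, a human lens epithelial line that was immortalized for culture. They were chosen by their annotated type in the raw count table, antisense, and by a mean FPKM over the 3 replicates above 1 in at least 1 of the 4 groups. FPKM is the number of fragments on a gene scaled to gene length and to the size of the library. Of 58735 genes counted, 5583 were annotated as antisense, and 604 of these (10.8%) passed the rule, while 1633 had no read in any library. Their levels chose them, so the levels are given as a description. WT cells and ATG7 KO cells, in which ATG7 was targeted with CRISPR/Cas9 to block autophagy, were each sequenced untreated at 0 h and after 200 μM H2O2 for 12 h, with 3 biological replicates per group. All 4 groups came from the same line and were grown in the same serum-containing medium. Individual KO clones had been picked, and which clone was sequenced is not given in the sources used here. Collection of the untreated cells at 0 h means that a change with H2O2 cannot be told apart from a change over 12 h in culture. P-values measure the spread between replicates of this one line.

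Antisense transcripts are RNAs read from the DNA strand opposite to another gene. Some start beside the start of a coding gene and run away from it, some lie within its introns or exons, and some overlap its end. A few are known to act on the gene they overlap or on its chromatin, others host small nucleolar RNAs, and for most no function is known. The library kit named for these samples does not mark the strand, and the strand setting of the counting is not given in the sources used here. Reads from an antisense gene and from the gene on the other strand can therefore not be told apart where both are exonic, and each antisense gene is given below beside its sense partner, the overlapping opposite-strand gene with the most reads.

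Each library held 15602183 to 17659496 reads on genes. A library's mean correlation with the others of its group was 0.996 to 0.997 in 3 groups, but untreated ATG7 KO replicate 1 stood apart with a mean of 0.98. Results that include untreated ATG7 KO cells are also given without it. ATG7 itself was at 2.21 to 2.81 FPKM in untreated WT libraries and 3.42 to 3.78 FPKM in untreated KO libraries, and at 1.91 to 1.99 FPKM in treated WT and 2.11 to 2.35 FPKM in treated KO libraries, so its RNA level does not check the KO label. Of 14 lens epithelium markers 6 were above 1 FPKM in at least 1 group (VIM, CDH2, GJA1, PAX6, SIX3 and CRYAB), while SOX1 and LIM2 had no read and CRYAA reached 0.0357 FPKM. The summed level of this list was 498 to 528 FPKM in untreated WT, 436 to 458 in treated WT, 437 to 553 in untreated KO and 350 to 363 in treated KO cells. Of 7 lens fibre markers 1 (CRYGS) passed 1 FPKM, with sums of 1.38 to 2.71 FPKM over all libraries. Of 12 markers of other cells 2 did, MITF and the collagen gene COL1A1, and this sum was 615 to 647 FPKM in untreated WT, 267 to 283 in treated WT, 342 to 494 in untreated KO and 240 to 250 in treated KO cells. The part of these shifts in the results below was not tested, and in bulk RNA fewer cells of a kind and less RNA per cell cannot be told apart.

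The antisense genes whose changes were largest include a few with a known start in RefSeq. Promoter windows of 250 bases before to 50 after the start, from RefSeq on GRCh38.p14, matched 137 of the 604 genes by symbol. The window of STARD4-AS1 is shown because it was among the genes that fell most with H2O2 in WT cells and starts 364 bases from the start of the sense gene STARD4 on the other strand. The windows of KRT7-AS and OVOL1-AS1, which start inside a sense gene, were chosen after their values were seen, because they mark a gene that fell and a gene that was almost silent before H2O2.
STARD4-AS1: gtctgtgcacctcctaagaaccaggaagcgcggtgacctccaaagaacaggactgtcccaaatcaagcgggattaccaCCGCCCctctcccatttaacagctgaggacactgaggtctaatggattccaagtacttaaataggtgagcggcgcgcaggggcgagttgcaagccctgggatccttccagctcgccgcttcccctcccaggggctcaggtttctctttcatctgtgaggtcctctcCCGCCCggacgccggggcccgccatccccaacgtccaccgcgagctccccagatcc
KRT7-AS: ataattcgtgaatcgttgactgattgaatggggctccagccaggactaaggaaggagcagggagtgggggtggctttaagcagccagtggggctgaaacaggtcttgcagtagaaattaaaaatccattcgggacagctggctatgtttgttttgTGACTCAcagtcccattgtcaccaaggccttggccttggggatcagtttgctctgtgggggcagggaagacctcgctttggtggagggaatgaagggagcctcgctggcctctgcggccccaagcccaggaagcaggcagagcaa
OVOL1-AS1: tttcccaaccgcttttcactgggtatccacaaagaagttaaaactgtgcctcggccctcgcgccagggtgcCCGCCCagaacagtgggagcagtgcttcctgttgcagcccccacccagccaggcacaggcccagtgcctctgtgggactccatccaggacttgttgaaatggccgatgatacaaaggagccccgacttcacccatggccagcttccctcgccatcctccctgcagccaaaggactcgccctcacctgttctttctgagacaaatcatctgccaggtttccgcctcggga
The windows lie at chr5:111511976-111512275 on the plus strand, chr12:52247399-52247698 on the minus strand and chr11:65790819-65791118 on the minus strand. Capitals mark matches to 6 motifs searched on both strands. These are the antioxidant response element TGACNNNGC, the AP-1 motif TGANTCA, the cAMP response element TGACGTCA, the GC box GGGCGG, the TATA box TATAAA and the CCAAT box, whose letters are its name. STARD4-AS1 held 2 GC boxes, read as CCGCCC on the printed strand, OVOL1-AS1 held 1, and KRT7-AS held 1 AP-1 motif, TGACTCA, 95 bases before its start. No 2 of these matches overlapped. Among 35116 RefSeq promoter windows 45% held the GC box and 7.71% the AP-1 motif, beside 54% and 8.03% of the 137 antisense windows. The antioxidant motif was in 13.3% of all and 20.4% of antisense windows, the cAMP motif in 1.85% and 3.65%, the CCAAT box in 34.6% and 38.7%, and the TATA box in 11.5% and 7.3%. A match is a string of letters and not a bound site.

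Expressed antisense genes were low and short. The median of their mean FPKM over the 12 libraries was 1.16 (quartiles 0.843 and 1.86), and the median gene length was 858 bases. That is a median of 21.7 reads per library (quartiles 9.42 and 50.3), compared with 26.9 for 473 lincRNA genes and 682 for 11278 protein-coding genes chosen by the same FPKM rule. Together they took 0.183% to 0.218% of the reads of a library, a summed level of 1060 to 1285 FPKM. A total of 195 genes exceeded 1 FPKM in all 4 groups, 93 in 3 groups, 133 in 2 and 183 in 1 group. Of those above 1 FPKM in 1 group, 74 were so in treated WT cells, 40 in untreated WT, 36 in treated KO and 33 in untreated KO cells. For such genes a difference between groups is partly built in by the rule. Just above the threshold were AP001469.2 (1.0003 FPKM in untreated WT cells) and AC093567.1 (1.0006 in treated KO cells), and just below it A1BG-AS1 (0.9977 in untreated WT cells) and AC091180.5 (0.9957 in untreated KO cells).

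The highest level belonged to AC099850.3, which lies inside PRR11, a gene active in dividing cells. Untreated WT libraries had 124, 113 and 123 FPKM of it and treated WT libraries 47.0, 43.1 and 39.3 FPKM. In KO cells the values were 69.7, 106 and 111 FPKM untreated and 23.1, 29.8 and 25 FPKM treated. Its treated libraries lay below its untreated ones in both lines. FGD5-AS1, next in order, had 33.5 to 34.6 FPKM in treated WT libraries and 37.8 to 45.8 FPKM in the other 9. AC005288.1, overlapping the Mediator subunit gene MED1, had 11.4 to 22.3 FPKM. Its range and those of the next 7 genes overlapped (AL513165.1, the small nucleolar RNA host SNHG7, AC093673.1, THAP9-AS1, AL391422.4, GATA2-AS1 and ARRDC1-AS1), so their order is not set beyond the spread. The plot of levels by library shows that SNHG7, AL513165.1 and THAP9-AS1 were highest in treated WT cells.

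**Figure D1:**
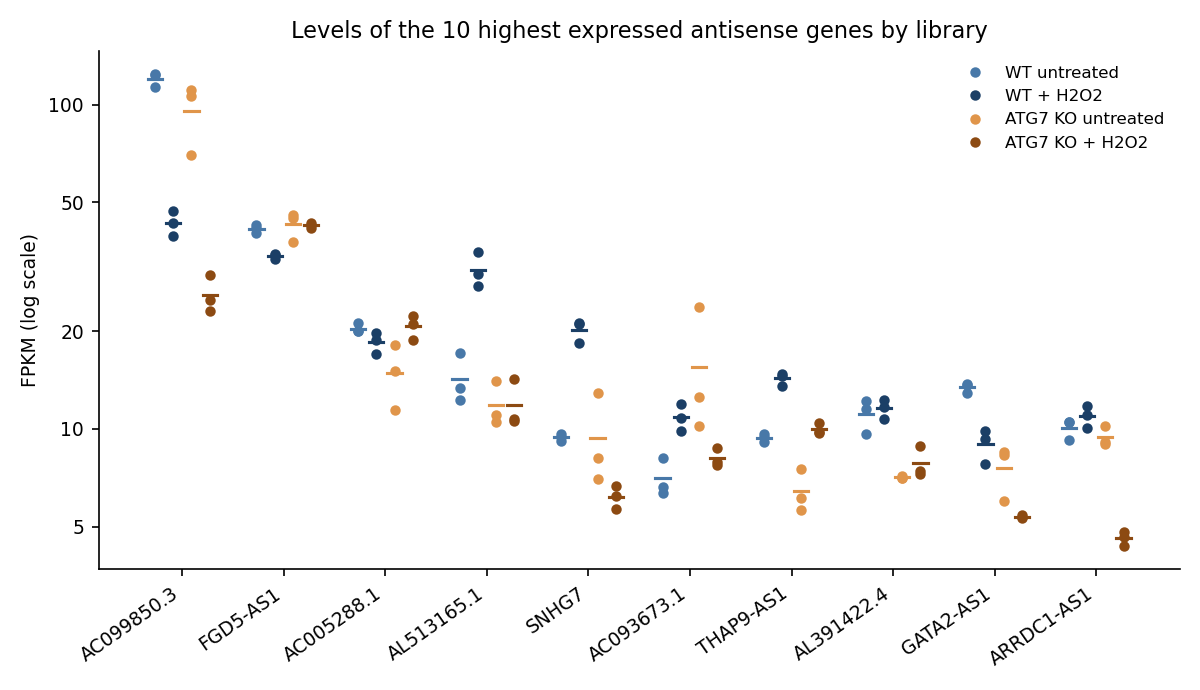
FPKM on a log scale of the 10 antisense genes with the highest mean over 12 libraries. Points are libraries, 3 per group, and short lines are group means; AC099850.3 lies between 23.1 and 124 FPKM and is lower with H2O2 in both lines, and FGD5-AS1 stays between 33.5 and 45.8 FPKM.

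Most of the expressed antisense genes overlapped another gene. A partner on the other strand was found for 524, and it was protein-coding for 510. The arrangement was within the partner's span for 229, start beside start (within 1 kb) for 122, across the partner's 3′ part for 109, across its 5′ part for 45, and around the whole partner for 19, while 80 had no overlap. Of those 80, 42 started within 1 kb of an opposite-strand start. A median of 6.99% of an antisense gene's exonic bases lay in exons of its partner. For 188 genes no base did, for 108 over 25%, and for 33 over 50%. The antisense gene's FPKM was a median of 14.3% of its partner's (quartiles 5.69% and 50.5%), and 91 antisense genes were above their partner. The 524 genes had 505 distinct partners, and 37 of them shared a partner with another, so they are not independent of each other.

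H2O2 in WT cells changed many expressed antisense genes. Of 461 that passed the filter on low counts, 122 rose and 80 fell in edgeR's quasi-likelihood test, with p-values adjusted over all genes by Benjamini-Hochberg and a threshold of 0.01, together 43.8%. Over all genes tested 61% were called, 30.9% higher and 30.1% lower. A log2 fold change beyond 1 as well was seen in 101 higher and 34 lower antisense genes (background 11.8% and 7.07%). The median log2 fold change was 0.08, against -0.01 over all genes. Since 74 genes passed the rule through treated WT cells only, the number of large rises is partly built in by it. Among the 195 genes above 1 FPKM in all groups, 40 rose and 38 fell of 191 tested, and beyond 1 there were 24 and 10. Their 505 sense partners had 169 higher and 167 lower of 482 tested. Of the 302 antisense genes at or above the median read count 49% were called, and of the 159 tested below it 34%, while with H2O2 in KO cells the shares were 17.1% and 16%.

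STARD4-AS1, KRT7-AS, AL138789.1 and AL450263.1 fell most in WT cells. STARD4-AS1 starts beside STARD4, which encodes a cholesterol transfer protein. It had 2.04, 2.62 and 1.94 FPKM in untreated WT libraries and 0.376, 0.276 and 0.484 FPKM in treated ones. The 2 groups did not overlap, and the log2 fold change was -2.53 (SE 0.17, edgeR adjusted p = 1.73e-17). STARD4 itself changed less, from 8.98 ± 0.515 to 6.72 ± 0.076 FPKM (SD, n = 3), a log2 fold change of -0.42. KRT7-AS lies inside KRT7, the gene of a keratin of simple epithelia. It had 6.10, 6.84 and 7.22 FPKM untreated and 1.5, 0.691 and 2.09 FPKM treated. The log2 fold change was -2.22 (SE 0.21, edgeR adjusted p = 6.3e-09), compared with -0.41 for KRT7. AL138789.1 and AL450263.1 lie inside DEPDC1, a gene of dividing cells, and RALGPS1, which encodes an exchange factor for Ral proteins. AL138789.1 fell from 1.49, 1.47 and 1.29 FPKM to 0.0614, 0.474 and 0.182 FPKM, a log2 fold change of -2.58 (SE 0.48), or -3.47 without treated WT replicate 2. AL450263.1 fell by 2.90 on the log2 scale (SE 0.53), from 16, 25 and 18 reads in the untreated libraries to 2, 3 and 2 in the treated ones. AL450263.1 exceeded 1 FPKM in untreated WT cells only, so the rule required the level from which it fell, and its fall is a description. AL138789.1 exceeded 1 FPKM in untreated cells only, in both lines, so its fall is a description too. Both sense genes fell too, by 1.73 for DEPDC1 and 1.57 for RALGPS1 on the log2 scale. PAXIP1-AS2, NNT-AS1 and AC007743.1 also fell by over 1 on that scale. Of these, PAXIP1-AS2 exceeded 1 FPKM in untreated cells only, in both lines, so its fall is a description.

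The antisense genes with the highest rises had few or no reads before H2O2. AC107959.2, AC011511.5, OVOL1-AS1 and AC022217.2 exceeded 1 FPKM in treated WT cells only, so the rule required a high level there, and their values are a description. AC107959.2 starts beside TNFRSF10B, which encodes a death receptor for the ligand TRAIL. It had 2, 5 and 1 reads in untreated WT libraries and 139, 108 and 142 reads in treated ones, or 0.0214 to 0.103 and 2.66 to 3.13 FPKM. The log2 fold change was 5.64 (SE 0.32) and 6.39 without untreated WT replicate 2, the one with 5 reads. TNFRSF10B rose from 36.4 ± 0.647 to 203 ± 14.4 FPKM (SD, n = 3), a log2 fold change of 2.47. AC011511.5 overlaps the 3′ part of ICAM1, the gene of a leukocyte adhesion molecule. Its reads were 2, 1 and 4 before and 105, 105 and 89 after H2O2, a log2 fold change of 5.45 (SE 0.35), or 6.04 without untreated WT replicate 3, while ICAM1 rose from 59.1 ± 2.1 to 106 ± 7.67 FPKM. Of its exonic bases 25.3% lie in ICAM1 exons, and reads there cannot be given to a strand. OVOL1-AS1, inside the zinc finger gene OVOL1, had 1 read in the untreated and 57 in the treated libraries, a ratio of 59.1 with a 95% counting interval of 10.2 to 2370. AC022217.2 had no read untreated and 18, 15 and 13 reads treated, at least 15.9-fold higher against a floor of 3 reads over the group. Such intervals and floors cover counting error only. ARHGAP31-AS1, inside ARHGAP31, was the most abundant of this kind. It had 0.552, 0.0871 and 0.451 FPKM untreated and 12.9, 12.5 and 10.4 FPKM treated (log2 fold change 5.00, SE 0.31), and ARHGAP31 moved by 0.42. ARHGAP31-AS1 exceeded 1 FPKM in treated cells only, in both lines, so the rule bears on its rise, which is a description.

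**Figure D2:**
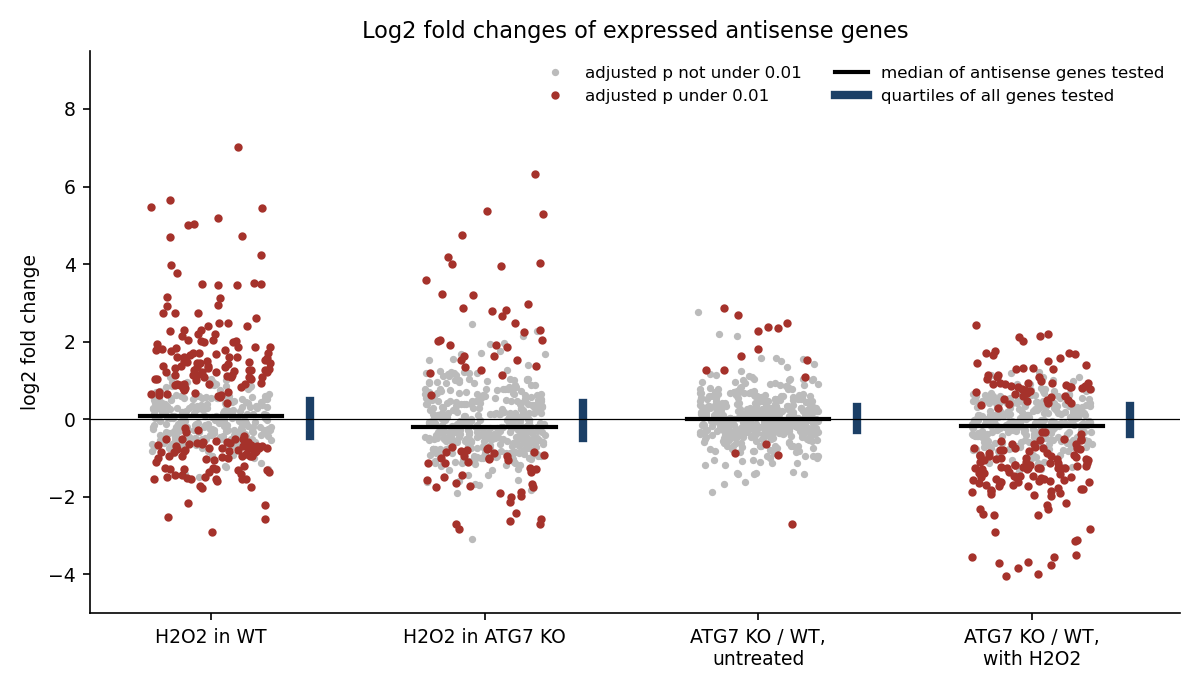
Log2 fold change (vertical axis) of each antisense gene tested in the 4 comparisons of 2 groups, in red where the edgeR adjusted p is under 0.01, with black lines at their median and blue bars for the quartiles of all genes. With H2O2 the medians are 0.08 in WT and -0.19 in KO cells; the highest point, AC022217.2, had no untreated read, so its place depends on the count the fit adds.

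Where an antisense gene and its sense partner were both called in WT cells, most pairs moved the same way. Over 389 pairs of which both genes passed the filter, the log2 fold changes had a Pearson r of 0.51, across pairs that share libraries and in places reads. Both genes of 126 pairs were called, in the same direction in 102. The antisense gene was called without its partner in 43 pairs, and the partner alone in 153. Over all opposite-strand pairs of any gene type 1013 had both genes called, 619 of them in the same direction. With over 25% of the exonic bases shared 22 of 23 called pairs moved together, with none shared 29 of 36, and with up to 25% shared 51 of 67. By arrangement, 21 of 33 moved together where starts lay side by side and 46 of 52 where the antisense gene was inside its partner. These counts were not tested against each other. The ratio of antisense to sense reads changed in 128 of the 389 pairs (32.9%, limma with Benjamini-Hochberg adjustment over all pairs, adjusted p under 0.01), against 43.3% of all opposite-strand pairs.

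The largest ratio changes were at DLGAP1 and ARHGAP31. The ratio of ARHGAP31-AS1 to ARHGAP31 rose by 4.72 on the log2 scale (SE 0.44), or 4.0 without untreated WT replicate 2. For AC011511.5 and ICAM1 the ratio rose by 4.55 (SE 0.42), and for AC107959.2 and TNFRSF10B by 3.20 (SE 0.40). Treated WT cells alone chose AC011511.5 and AC107959.2, and treated cells of both lines chose ARHGAP31-AS1, so these ratios are a description. For STARD4-AS1 and STARD4 it fell by 2.13 (SE 0.20, limma adjusted p = 9.1e-10) and for KRT7-AS and KRT7 by 1.95 (SE 0.26). Inside DLGAP1, the gene of a synaptic scaffold protein, lie DLGAP1-AS1, DLGAP1-AS2 and AP002478.1. All 3 rose with H2O2, by 0.57, 1.47 and 2.75, the first losing its call in 5 of the 6 fits that left out 1 library (edgeR adjusted p 0.0115 to 0.117, the exception being the fit without treated WT replicate 3). DLGAP1 was listed at 0 FPKM in all untreated WT libraries and reached 0.24 ± 0.0527 FPKM with H2O2, so the fall in their ratios depends on the 0.5 reads added to each count and no fold is given. SBF2-AS1 and HOXB-AS3 showed a higher ratio without being called themselves, with log2 ratio changes of 0.86 and 0.87, while SBF2 and HOXB3 fell by 1.23 and 1.16. GATA2-AS1 fell by 0.60 while GATA2, the gene of a zinc finger transcription factor, rose by 0.46. CDKN2B-AS1, also known as ANRIL, fell by 0.75 beside a rise of 0.49 for CDKN2A, a cell cycle inhibitor gene, but lost its call without untreated WT replicate 2 (edgeR adjusted p = 0.0118). CDKN2B-AS1 had a mean above 1 FPKM in untreated WT cells only, so the rule required that level and its fall is a description.

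**Figure D3:**
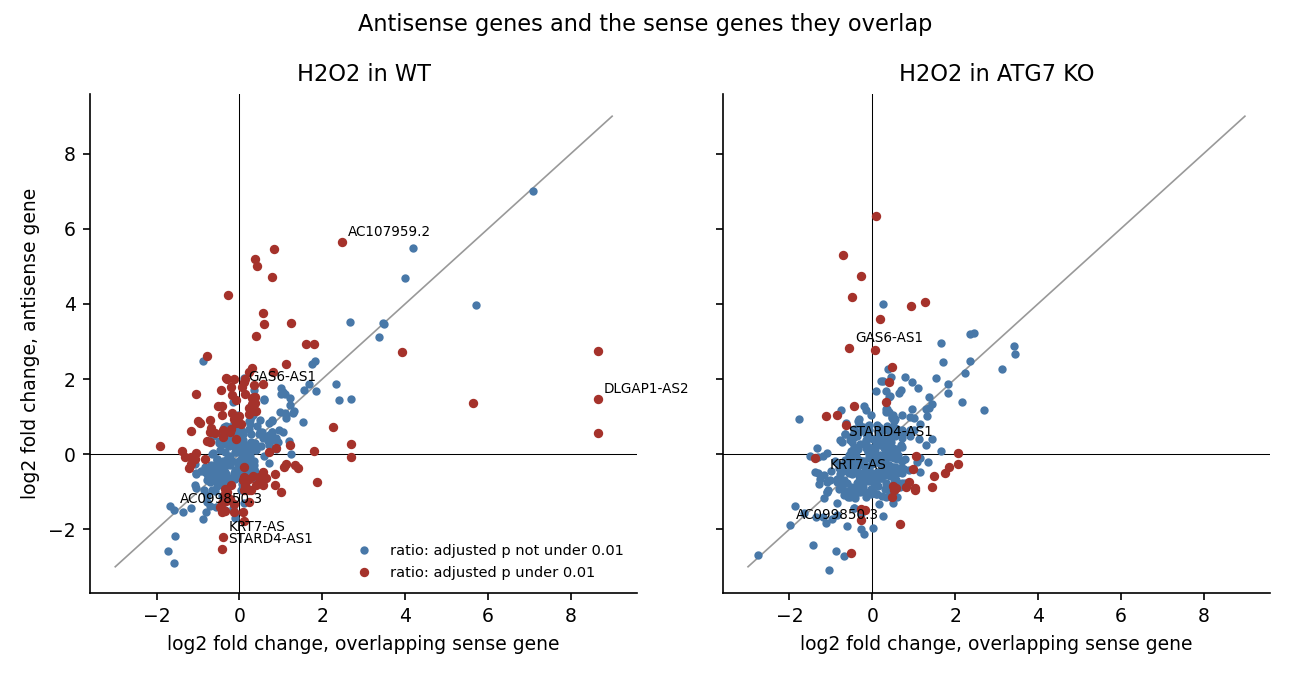
Log2 fold change of antisense genes (vertical axis) against that of their sense partner (horizontal axis) with H2O2, 1 point per pair, over 389 pairs in WT cells (left) and 378 in ATG7 KO cells (right). The grey line marks equal change and red points a changed ratio (limma adjusted p under 0.01), as for STARD4-AS1, KRT7-AS and AC107959.2 in WT cells, while AC099850.3 lies near the line in both. AC107959.2 exceeded 1 FPKM in treated WT cells only, so its place is a description.

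H2O2 in ATG7 KO cells changed fewer antisense genes. Of 448 tested 35 rose and 40 fell (16.7%), against 26% of all genes, 13.6% higher and 12.4% lower. Beyond a log2 fold change of 1, 34 rose and 28 fell (background 7.75% and 6.45%), and the median was -0.19 against -0.03 over all genes. Among the genes above 1 FPKM in all groups, 6 rose and 19 fell of 192 tested. Without untreated KO replicate 1 the count was 167, 70 higher and 97 lower, beside 58.4% of all genes. Leaving out untreated KO replicates 2 or 3 gave 48 and 44, and leaving out treated KO replicates 1, 2 or 3 gave 30, 31 and 32.

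The largest rises in KO cells were again in genes with few reads before H2O2. AL034550.2, inside NOL4L, had 1 read in the untreated KO libraries and 107 in the treated ones (38, 30 and 39), a ratio of 107 with an interval of 18.8 to 4260. AC025423.1, with no overlapping partner, went from 2 to 96 reads (47.9, interval 12.9 to 401). AC020634.1, inside the myosin light chain kinase gene MYLK, went from 1 to 52 reads (51.9, interval 8.91 to 2090), and lost its call in 4 of the 6 fits that left out 1 library (edgeR adjusted p 0.011 to 0.0123, the exceptions being those without untreated replicate 1 and treated replicate 3). AL035681.1 lies inside L3MBTL2, the gene of a chromatin protein, and had 1, 2 and 2 reads untreated and 57, 33 and 50 treated, a log2 fold change of 4.75 (SE 0.41). AL034550.2 and AL035681.1 exceeded 1 FPKM in treated KO cells only and are described, not tested. AC025423.1 and AC020634.1 exceeded 1 FPKM in treated cells only, in both lines, so their rises are a description too. These 4 genes were also near 0 in untreated WT cells, with 3 reads or fewer in each gene except AL035681.1, which had 4. NRAV, inside the dynein light chain gene DYNLL1, moved from a higher level. It had 5.04, 5.58 and 6.25 FPKM in untreated KO libraries and 13.9, 13.8 and 13.4 FPKM in treated ones, a log2 fold change of 1.28 (SE 0.12, edgeR adjusted p = 0.000235), while DYNLL1 was at -0.45 and not called. GAS6-AS1, which overlaps the 3′ part of the growth factor gene GAS6, rose by 2.82 (SE 0.32) as GAS6 fell by 0.56. GAS6-AS1 also exceeded 1 FPKM in treated KO cells only, so the rule required a high level there and its rise is a description.

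AP001471.1, AC097534.1, AL138789.1 and H1FX-AS1 fell most in KO cells. AC099850.3, the most abundant antisense gene, fell by 1.89 on the log2 scale (SE 0.21, edgeR adjusted p = 0.000576) and its host PRR11 by 1.99. AL138789.1 fell by 2.70 (SE 0.41) and DEPDC1 by 2.77, though the former lost its call in 2 of the 6 fits that left out 1 library (edgeR adjusted p 0.0137 to 0.0146). H1FX-AS1 starts beside H1FX, the gene of a linker histone. It had 2.23, 1.49 and 1.97 FPKM untreated and 0.188, 0.409 and 0.32 FPKM treated, a log2 fold change of -2.63 (SE 0.30), and its ratio to H1FX fell by 2.16. AL138789.1 and H1FX-AS1 exceeded 1 FPKM in untreated cells only, in both lines, so their falls are a description. The same holds for the ratio of H1FX-AS1 to H1FX. AC097534.1, most of whose exonic bases (75.6%) lie in exons of the glycosyltransferase gene GALNT7, fell by 2.71 (SE 0.48), and AP001471.1 fell by 2.83 (SE 0.42). Both lost their call when libraries were left out, in 4 and 3 of 6 fits (edgeR adjusted p 0.0142 to 0.0234 and 0.0105 to 0.0111). AP001471.1 exceeded 1 FPKM in untreated KO cells only, so the rule required the level from which it fell, and its fall is a description. The ratio changed in 38 of 378 pairs (background 16.8%), most for AC020634.1, AL034550.2 and AL035681.1, at 5.21, 5.59 and 4.77 on the log2 scale. Treated KO cells alone chose AL034550.2 and AL035681.1, and treated cells of both lines chose AC020634.1, so these ratios are a description. Without untreated KO replicate 1 there were 110 pairs with a changed ratio, and without treated KO replicates 1, 2 or 3 there were 9, 8 and 8.

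The responses of the 2 lines, which share no library, could be compared for 416 antisense genes tested in both. Of these 180 were called in WT cells, 68 in KO cells and 44 in both, which is 24.4% of the WT calls and 64.7% of the KO calls. Over all 14895 genes tested in both the shares were 34.4% and 81.1%. Of the 44, 23 rose and 20 fell in both lines. The remaining one, DBH-AS1, named after its values were seen, had a log2 fold change of 0.90 in the WT line (edgeR adjusted p = 0.000181) and -1.27 in KO cells (edgeR adjusted p = 0.00745).

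A difference between the responses was tested with the interaction term over all 12 libraries, in which a negative value means a lower response in KO cells. It was called for 35 of 508 antisense genes, 6 higher and 29 lower (6.89%), against 14% of all genes, 7.02% higher and 7.01% lower. Beyond 1 on the log2 scale there were 4 higher and 26 lower (background 2.18% and 4.04%). Genes that passed the rule through treated WT cells only make this split partly built in. Among the genes above 1 FPKM in all groups the interaction was higher for 4 and lower for 14 of 193 tested, and beyond 1 for 2 and 11. Without untreated KO replicate 1 the interaction was called for 86, 17 higher and 69 lower, beside 34.1% of all genes, and leaving out untreated WT replicate 3 or treated WT replicates 1 or 2 gave 23. STARD4-AS1 had the highest value. In KO cells it had 0.569, 1.68 and 1.75 FPKM untreated and 1.62, 1.42 and 1.94 FPKM treated, groups that overlapped, and the interaction was 2.84 (edgeR adjusted p = 0.00124), or 2.49 without untreated KO replicate 1, whose level was the lowest. KRT7-AS had 3.04, 4.54 and 3.89 FPKM and 2.45, 2.59 and 2.76 FPKM in KO cells, and an interaction of 1.66 (edgeR adjusted p = 0.00601), which was lost in 7 of the 12 fits that left out 1 library (adjusted p 0.0123 to 0.0177). NRAV followed with 1.15 (edgeR adjusted p = 0.000926). NNT-AS1 starts beside NNT, the gene of a mitochondrial enzyme that makes NADPH. It fell in WT cells from 5.43, 4.55 and 4.74 to 2.30, 2.33 and 2.27 FPKM, while KO cells had 6.89, 6.09 and 6.92 untreated and 5.61, 5.60 and 5.96 FPKM treated. Its interaction was 0.88 (edgeR adjusted p = 0.000439).

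The lowest interaction values belonged to AC107959.2, AC011511.5 and C2-AS1. These 3 exceeded 1 FPKM in treated WT cells only, so that group chose them and their low interaction is a description, with no test. AC107959.2 had 9, 5 and 7 reads in untreated KO libraries and 15, 11 and 8 in treated ones, which overlapped, and an interaction of -4.91, or -5.66 without untreated WT replicate 2. Its neighbour TNFRSF10B rose by 2.54 on the log2 scale in KO cells, from 33.8 ± 4.13 to 197 ± 2.17 FPKM (SD, n = 3), and its own interaction was 0.06 (edgeR adjusted p = 0.737). AC011511.5 had 8, 0 and 8 reads and 7, 8 and 11 reads in KO cells, with an interaction of -4.72, or -5.31 without untreated WT replicate 3. C2-AS1, inside the complement gene C2, had an interaction of -5.08, with 0, 3 and 3 reads in untreated WT, 26, 23 and 18 in treated WT, 6, 3 and 4 in untreated KO and 1, 1 and 2 in treated KO libraries. ARHGAP31-AS1 had 0.291, 0.989 and 0.433 FPKM untreated and 1.12, 1.07 and 0.924 FPKM treated in KO cells, and an interaction of -4.17 (SE 0.66), or -3.52 without untreated KO replicate 2. The ratio to the sense gene differed in its response in 16 of 430 pairs (background 5.85%). Without untreated KO replicate 1 this was 44, and leaving out untreated WT replicates 2 or 3, any treated WT or any treated KO replicate gave 4 to 10.

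**Figure D4:**
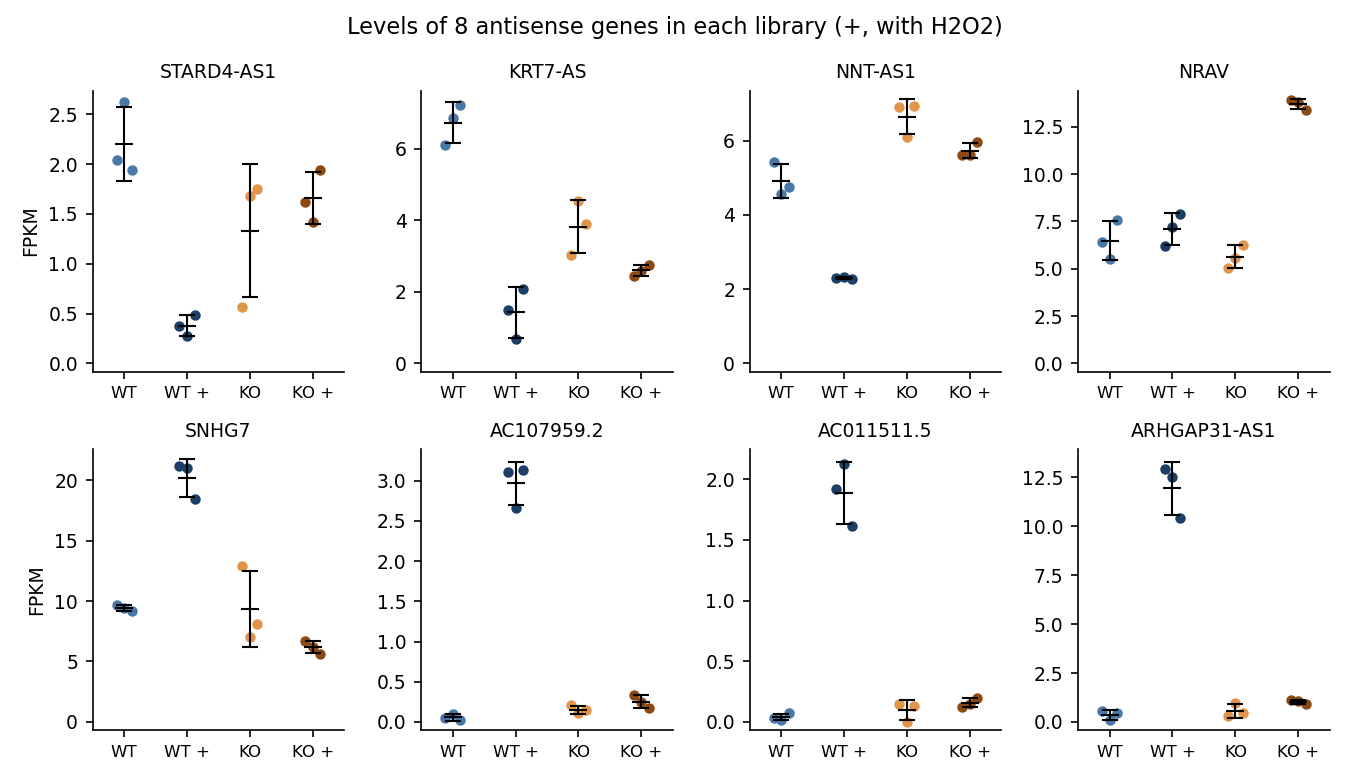
FPKM of 8 antisense genes in the 12 libraries, 1 panel per gene. Points are libraries and bars the mean ± SD of 3; STARD4-AS1, KRT7-AS and NNT-AS1 are lowest in treated WT cells, NRAV is highest in treated KO cells, and SNHG7, AC107959.2, AC011511.5 and ARHGAP31-AS1 are highest in treated WT cells.

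Without H2O2, few antisense genes differed between the lines. Of 422 tested 12 were higher in KO and 4 lower (3.79%), against 7.7% of all genes, 4.42% higher and 3.28% lower. Beyond a log2 fold change of 1 there were 12 higher and 1 lower (background 3.02% and 1.76%). Among the genes above 1 FPKM in all groups, 4 were higher and 2 lower of 192 tested. Without untreated KO replicate 1 the count was 81, 52 higher and 29 lower (all genes 36.2%), without untreated KO replicates 2 or 3 it was 6 in each fit, and without untreated WT replicates 1, 2 or 3 it was 3, 2 and 3. AC007743.1, which overlaps the 5′ part of CCDC85A, had 3.23, 2.69 and 2.96 FPKM in WT and 0.343, 0.378 and 0.626 FPKM in KO libraries, a log2 fold change of -2.71 (SE 0.24, edgeR adjusted p = 0.000597), and CCDC85A differed by -2.16. AC002480.1, inside STEAP1B, had 0.212, 0.134 and 0.208 FPKM in WT and 1.30, 1.13 and 1.20 FPKM in KO libraries (2.69, SE 0.27, edgeR adjusted p = 0.000818). These 2 calls held in every fit that left out 1 library. AC007743.1 exceeded 1 FPKM in WT cells only and AC002480.1 in KO cells only. The rule therefore bears on both differences, and they are a description. AL354719.2 lies inside EYS, a gene known for photoreceptors, and had 0.395, 0.374 and 0.194 FPKM in WT and 2.79, 1.81 and 2.56 FPKM in KO libraries (2.88, SE 0.33). Its call was lost without any 1 of the untreated WT libraries (edgeR adjusted p 0.01 to 0.0139).

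Of the other calls without H2O2, 5 were named by the rule for this comparison. AP002478.1 in DLGAP1 (2.48), AC036176.1 beside KDSR, an enzyme gene of sphingolipid synthesis (2.39), AC022098.1 at the latrophilin gene ADGRL1 (-0.93), AC027307.2 in APC2 (-0.88) and AL391422.4 beside PXDC1 (-0.65, all log2 fold changes) each lost their call in 4 or 5 of the 6 fits that left out 1 library (edgeR adjusted p 0.0104 to 0.0563). AC090673.1, named for the comparison of treated lines, was also higher in untreated KO cells (2.28, SE 0.29), as was HMGA2 (1.70). Its call was lost in 5 of the 6 fits that left out 1 library (edgeR adjusted p 0.0101 to 0.0222). Of the 352 pairs tested, none had a ratio past the limma threshold (background 0.761%), while 62 had an unadjusted p under 0.05 and 28 passed without untreated KO replicate 1. Among 20 antisense genes of a list of characterised ones, none of the 19 tested was called.

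With H2O2 in both lines, 57 antisense genes were higher and 116 lower in KO cells of 458 tested (37.8%), against 55.6% of all genes, 27.7% higher and 27.9% lower. Beyond a log2 fold change of 1 there were 23 higher and 87 lower (background 4.59% and 8.77%), and the median was -0.17 against -0.00 over all genes. Genes above 1 FPKM in 1 group were most often so in treated WT cells, so this split is partly built in by the rule. Among the genes above 1 FPKM in all groups, 25 were higher and 45 lower of 190 tested, and beyond 1 there were 6 and 25. This comparison shares its treated libraries with the ones above, so its genes are in part the same values seen from another side. AC090673.1, inside the chromatin protein gene HMGA2, had 0.401, 0.301 and 0.434 FPKM in WT and 1.97, 1.73 and 2.47 FPKM in KO libraries, a log2 fold change of 2.42 (SE 0.17), and HMGA2 was higher by 1.08. NECTIN3-AS1, at the cell adhesion gene NECTIN3, had 0.85, 1.01 and 1.5 FPKM in WT and 5.16, 5.56 and 5.02 FPKM in KO libraries (2.21, SE 0.19). AC090673.1 and AL109613.1 exceeded 1 FPKM in treated KO cells only, so their values are a description. AL109613.1 in BCAR3 was higher by 2.14 (SE 0.36) and STARD4-AS1 by 2.11 (SE 0.18).

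At the low end were IDI2-AS1, C2-AS1, AC022217.2 and OVOL1-AS1, which exceeded 1 FPKM in treated WT cells only and are described without a test. IDI2-AS1 overlaps IDI1, an isomerase gene of cholesterol synthesis, for 50.4% of its exonic bases. It had 34, 28 and 24 reads in treated WT and 2, 1 and 2 reads in treated KO libraries, a log2 fold change of -4.05 (SE 0.50), while IDI1 was lower by 0.84. C2-AS1 had 26, 23 and 18 against 1, 1 and 2 reads (-3.99, SE 0.55). AC022217.2 had 46 reads in WT and 3 in KO libraries, all 3 in treated KO replicate 3, a ratio of 0.0631 with an interval of 0.0125 to 0.196. OVOL1-AS1 had 57 and 4 reads (-3.76, SE 0.60). The ratio to the sense gene differed in 100 of 391 pairs (background 36.3%), among them AP001922.5 at MAP6, which had 17, 12 and 26 reads in treated WT and 4, 0 and 0 in treated KO libraries, while MAP6 was higher by 1.34. AP001922.5 too exceeded 1 FPKM in treated WT cells only, so its ratio is a description. Both genes were called in 102 pairs, in the same direction in 82, and over all opposite-strand pairs in 831, in the same direction in 565.

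Small nucleolar RNAs guide the modification of ribosomal RNA, and 5 of the antisense genes are named as their hosts. With H2O2 in WT cells 4 of them rose, SNHG7 and ZFAS1 by 1.09 and SNHG12 and SNHG10 by 1.14 on the log2 scale, and SNHG21 was at 0.86 (edgeR adjusted p = 0.0256). Of all genes 30.9% were higher, and the group was named after its values were seen. SNHG7 had 9.67, 9.45 and 9.21 FPKM in untreated and 21.2, 21.0 and 18.4 FPKM in treated WT libraries (SE 0.06, edgeR adjusted p = 3.83e-21). In KO cells none of the 5 was called, and SNHG7 had 12.9, 7.03 and 8.14 FPKM untreated and 6.68, 6.22 and 5.65 FPKM treated (log2 fold change -0.60, edgeR adjusted p = 0.0659). The interaction was called for SNHG7 (-1.69, edgeR adjusted p = 0.000479) and SNHG12 (-1.10, edgeR adjusted p = 0.00207).

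Of 20 antisense genes of the characterised list, 5 rose and 10 fell with H2O2 in WT cells, and 3 rose and 3 fell of 19 tested in KO cells, beside 61% and 26% of all genes called in either direction. Those called in WT cells included NKILA, an RNA known as a brake on NF-kappaB, which rose by 1.67 (SE 0.32) in WT and by 1.38 (SE 0.15, edgeR adjusted p = 0.000508) in KO cells. Its sense gene PMEPA1 rose by 1.85 in WT cells and was at 0.33 in KO cells (edgeR adjusted p = 0.021). NKILA had 0.486, 0.314 and 0.238 FPKM in untreated WT, 1.48, 1.20 and 0.649 FPKM in treated WT, 1.03, 1.12 and 0.956 FPKM in untreated KO and 2.90, 2.53 and 2.71 FPKM in treated KO libraries, and so was highest with H2O2 in KO cells. TMPO-AS1, beside the nuclear lamina gene TMPO, fell by 0.94 in WT cells, LOXL1-AS1, at a lysyl oxidase gene, by 0.52 in WT cells and from 5.54, 6.22 and 6.09 to 2.86, 3.29 and 2.81 FPKM in KO cells (edgeR adjusted p = 0.000589), and DHRS4-AS1, around a short-chain dehydrogenase gene, by 0.81 and 0.75. The KO call of DHRS4-AS1 was lost in 5 of the 6 fits that left out 1 library (edgeR adjusted p 0.0104 to 0.0167). Of 4 antisense genes named for HOX clusters 3 fell in WT cells, HOXB-AS4 by 1.55, HOXB-AS2 by 1.43 and HOTAIRM1 by 0.69, and HOTAIRM1 fell by 1.29 in KO cells, where 12.4% of all genes were lower, compared with 30.1% in WT cells. Without single libraries HOTAIRM1 lost its call in 3 of 6 fits in WT cells (edgeR adjusted p 0.0119 to 0.0213) and in 5 of 6 in KO cells (edgeR adjusted p 0.0102 to 0.0153).

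At the TNFRSF10B locus on chromosome 8, 3 antisense genes rose with H2O2 in WT cells, AC107959.2 by 5.64, AC107959.1 by 4.73 and AC107959.3 by 1.37, and in treated cells their log2 fold changes of KO against WT were -3.54, -3.12 and -3.15. They were too low to be tested in KO cells with and without H2O2. AC107959.3 lies inside AC107959.2 on the other strand, so these 3 are not independent, and each exceeded 1 FPKM in treated WT cells only, which makes these values a description. Opposite genes of a list of antioxidant genes lay 1 antisense gene, AC089983.1, inside the thioredoxin reductase gene TXNRD1. It fell by 0.52 in WT (edgeR adjusted p = 0.00445) and by 1.87 in KO cells (edgeR adjusted p = 0.00351). In KO cells TXNRD1 rose by 0.67 (edgeR adjusted p = 0.00268), and the ratio fell by 2.53 (limma adjusted p = 0.00188). SOD1, which was not on the list, had an expressed antisense gene too, AP000254.1. Of the lens epithelium markers, VIM and CDH2 had an antisense member. VIM-AS1 was at 0.21 in WT and -1.15 in KO cells with H2O2, not called in either, and its interaction of -1.36 lay at the threshold (edgeR adjusted p = 0.01) and was lost in 9 of the 12 fits that left out 1 library (adjusted p 0.0168 to 0.0304). AC110015.1 in CDH2 was not called. No lens fibre or other-cell marker had an expressed antisense gene.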

How the data were processed

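Total RNA of 12 HLE-B3 cultures (4 groups, 3 replicates each) was sequenced by the authors from libraries made with a kit that does not mark strand by its name. The submitters' processing notes name HISAT2 2.0.5, featureCounts 1.5.0-p3 and GRCh38, and the gene annotation in the table matched GENCODE release 29. The strand setting is not given in the sources used here. The deposited values were raw read counts per gene and, from the authors, FPKM per gene and library. Antisense genes were chosen by the annotated type and by the deposited FPKM. These genes and the gene lists were chosen with earlier results of these data known, and the lists taken from earlier work on these files support nothing here.

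Counts were tested with edgeR 4.0.16 in R 4.3.3 (filterByExpr with a minimum count of 10, TMM scaling, robust quasi-likelihood test, Benjamini-Hochberg adjustment over all genes). Each comparison was fitted on its 6 libraries and the interaction on 12. A call needed an adjusted p under 0.01. The ratio of antisense to sense reads was tested with limma 3.58.1 on the log2 ratio of counts with 0.5 added, over all opposite-strand pairs. Both steps were tested on simulated data. Alternatives were DESeq2 1.42.0, other scalings, filters and thresholds, limma on log2(FPKM + 1), a replicate block and leaving out each library. Library totals were 15602183 to 17659496 reads, so a gene with the median of 21.7 reads per library has a large counting error.

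Genes were named by rule: the 10 with the highest mean FPKM, the 4 highest and 4 lowest log2 fold changes among called genes whose groups do not overlap in each comparison of 2 groups, the 3 highest and 3 lowest in the interaction, the 3 largest ratio changes per comparison, genes of the list of characterised antisense transcripts, and the 2 on each side of the FPKM threshold. Genes of the snoRNA host, HOX, TNFRSF10B and DLGAP1 groups were named after their values were seen. A promoter was to be printed for genes of the H2O2 comparison in WT cells that start within 1 kb of an opposite-strand gene, which gave STARD4-AS1.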

Additional observations from a re-analysis of the deposited data

Results flagged for a closer look

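For 17 of the antisense genes named by the rule, the response to H2O2 differed between WT and ATG7 KO cells in the test of the difference itself, the interaction term of edgeR's quasi-likelihood fit over 12 libraries. Values are the log2 response in KO minus that in WT cells. It was higher in KO cells for STARD4-AS1 (2.84), KRT7-AS (1.66), NRAV (1.15) and NNT-AS1 (0.88). It was lower for C2-AS1 (-5.08), AC107959.2 (-4.91), AC011511.5 (-4.72), ARHGAP31-AS1 (-4.17), AL354719.2 (-2.42), AP002478.1 (-1.97), SNHG7 (-1.69), H1FX-AS1 (-1.69), DLGAP1-AS2 (-1.55), AC093673.1 (-1.55), VIM-AS1 (-1.36), ARRDC1-AS1 (-1.15) and AL513165.1 (-1.10). Among genes named after their values were seen, it was lower for AC107959.1 (-4.11), DBH-AS1 (-2.17) and SNHG12 (-1.10). C2-AS1, AC107959.2, AC011511.5 and AC107959.1 exceeded 1 FPKM in treated WT cells only, so the choice of genes bears on their direction and their values are a description.

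ARRDC1-AS1, which overlaps the 3′ part of the arrestin-domain gene ARRDC1, had 10.5, 10.5 and 9.25 FPKM in untreated WT, 11.8, 11.0 and 10.1 FPKM in treated WT, 10.2, 9.10 and 8.98 FPKM in untreated KO and 4.65, 4.36 and 4.81 FPKM in treated KO libraries (edgeR adjusted p = 0.000162 for the interaction). ARRDC1 itself had an interaction of -0.97 (edgeR adjusted p = 0.000603). DLGAP1-AS2 had 1.41, 1.51 and 1.30 FPKM and 4.11, 4.30 and 3.37 FPKM in WT cells, and 3.65, 2.19 and 2.79 FPKM and 2.84, 2.13 and 3.25 FPKM in KO cells (edgeR adjusted p = 0.00185), so the treated WT libraries stood above the untreated ones and the KO groups overlapped. AL354719.2 had 1.62, 1.38 and 0.88 FPKM in treated WT and 1.69, 1.55 and 2.10 FPKM in treated KO libraries (edgeR adjusted p = 0.00183).

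Leaving out 1 library at a time, the calls of STARD4-AS1, NRAV, NNT-AS1, SNHG7, C2-AS1, AC107959.2, ARHGAP31-AS1, AL354719.2, DLGAP1-AS2 and ARRDC1-AS1 held in each of the 12 fits. They were lost in 9 fits for AC093673.1 (edgeR adjusted p 0.0149 to 0.0253) and VIM-AS1 (0.0168 to 0.0304), 8 for AL513165.1 (0.0113 to 0.0279), 7 for KRT7-AS, 5 for H1FX-AS1 (0.0111 to 0.0118), 4 for AP002478.1 (0.0101 to 0.0135) and 1 for AC011511.5. None of these 17 calls was lost without untreated KO replicate 1, the library that stands apart. For C2-AS1, AC107959.2 and AC011511.5 a fit without 1 library does not undo their choice by treated WT cells, so their calls remain a description.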

How the results depend on the processing

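No named value changed direction in any setting compared for it, and 99 of 133 stayed under the threshold in each of those settings. Fold changes of named genes were not compared with no filter, with 10 reads required in every library or with limma on log2(FPKM + 0.1). A setting that gave a gene no adjusted p was passed over. With H2O2 in WT cells, 125 genes were called when membership needed an FPKM above 2. With H2O2 in KO cells, 41 were called with 10 reads required in every library, 128 with all 12 libraries in 1 fit and 48 above 2 FPKM. Between untreated lines the counts were 43 (DESeq2), 27 (no filter), 9 (10 reads in every library), 53 (12 libraries) and 7 (replicate block). Between treated lines they were 113 (12 libraries), 111 (above 2 FPKM) and 110 (log2 fold change beyond 1), and for the interaction 68 (DESeq2), 69 (no filter) and 61 (limma on FPKM). Leaving out 1 library gave 176 to 196, 30 to 167, 2 to 81, 142 to 172 and 23 to 86 called genes in the 5 comparisons, in the order of WT, KO, untreated, treated and interaction, and 98 to 125, 8 to 110, 0 to 28, 75 to 93 and 4 to 44 pairs. The cause of these shifts was not tested. Same-numbered libraries did not deviate together (correlations of -0.057 to 0.114), so the numbers do not pair the samples. With the replicate block the counts of called genes were 199, 51, 7, 171 and 34, and of pairs 143, 33, 0, 105 and 14. DESeq2 called 167 and 108 genes with H2O2 in WT and KO cells. At a median of 21.7 reads per library the counting error of a gene is large.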
